A study of Mus musculus with 12 samples.

Results

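The genes described here are the regulators of the G1 phase of the cell cycle: the D cyclins Ccnd1, Ccnd2 and Ccnd3, the E cyclins Ccne1 and Ccne2, the kinases Cdk4 and Cdk6, and the inhibitors Cdkn1b, Cdkn2a and Cdkn2b. They were taken by gene symbol from a table of 57180 genes, where each of the 10 symbols stood for 1 gene. All 10 reached the level needed for testing, as did 14426 genes in all. The study followed HC11 cells, an established mouse mammary epithelial line, through an in vitro collective migration assay, and asked what Snail1, a transcription factor of epithelial-mesenchymal transition encoded by Snai1, does in it. Control cells (genotype given as WT, titled scr) and Snail1 KD cells (knockdown) were sorted, left overnight in medium with EGF and insulin to aggregate, and sampled at 0 h and at 36 h of migration. Each of the 4 groups held 3 RNA-seq libraries. All groups share the line, the sorting and the medium. The authors' group means of the knockdown are titled sh_snail1, and the labels give no further detail of the knockdown construct. Nor do they give whether the cells were a clone or a pool. It is not stated whether replicate libraries are separate cultures, and a p-value here speaks only of library-to-library spread, which may be technical. A control sample of 36 h, library 4, carries the unexplained prefix "mix" in its title. Were it a pool, that group would hold 2 independent samples and n = 3 would be too high.

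A cell that receives growth signals makes D cyclins, which bind Cdk4 or Cdk6 and begin to phosphorylate the retinoblastoma protein. This frees E2F factors, which switch on E cyclins and the genes of DNA replication, and cyclin E with Cdk2 then carries the cell into S phase. Proteins of the Ink4 family, among them p16Ink4a from Cdkn2a and p15 from Cdkn2b, block Cdk4 and Cdk6. The Cip/Kip proteins, among them p27 from Cdkn1b, bind cyclin-CDK complexes. In the mammary gland cyclin D1 is known for its part in the growth of the alveoli during pregnancy. RNA level is only part of this control, since cyclins and p27 are also regulated by protein turnover.

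Levels are given in TPM, a unit that divides by gene length and gives each library the same total. Changes are log2 differences of TPM + 1 from a limma model of all 12 libraries, with Benjamini-Hochberg adjustment over all 14426 genes tested, and "rose" or "fell" is used at an adjusted p under 0.05. Snai1 was 1.34, 2.51 and 1.69 TPM in control at 0 h against 0.58, 0.79 and 0.48 in knockdown, a fall of the log2 level by 0.80 (SE 0.227, limma adjusted p 0.0348). At 36 h it was 2.77, 2.69 and 3.92 TPM against 0.58, 0.44 and 0.20, and fell by 1.55 on the log2 scale (SE 0.227, adjusted p 0.0105). The knockdown and control libraries did not overlap at either time. The call at 0 h was lost in 12 of 24 alternatives, with adjusted p up to 0.216. Among them were median-of-ratios scaling (-0.51, adjusted p 0.191), a fit of only the groups compared (adjusted p 0.155), no filter (adjusted p 0.131) and the loss of any of 6 libraries (each control of 0 h, library 1 of knockdown 0 h, and libraries 1 and 2 of knockdown 36 h), with adjusted p of 0.05 to 0.123. At 36 h dropping library 4 of the control, or 2 or 3 of the knockdown, ended the call (adjusted p 0.058 to 0.0705), as did 2 other alternatives (adjusted p 0.105 and 0.169). Knockdown 0 h library 2 stood apart: mitochondrially encoded genes held 14.0% of its TPM, against 1.45% to 6.15% in the other 11 libraries, and genes shorter than 300 bases held 10.6%, against 2.32% to 5.23%. The 5.23% was that of knockdown 0 h library 3, which had 27715 genes above 0 TPM, against 20932 to 23427 in the rest. The median correlation of knockdown 0 h libraries 1, 2 and 3 with their own group was 0.906, 0.861 and 0.894. In the other groups it was 0.959 to 0.969. Epithelial markers were all 6 above the filter, with a summed level of 3325 to 25456 TPM, while 3 of 6 fibroblast markers passed it (summed level 3.76 to 23.2 TPM), 1 of 5 leukocyte markers (2.14 to 14.7 TPM), 1 of 3 endothelial markers (0.49 to 7.02 TPM) and 1 of 3 adipocyte markers (3.49 to 14.1 TPM). Lum, Adgre1, Cdh5 and Adipoq, the lowest of these lists, were at or under 0.1 TPM in every library. Markers of the same lists that passed the filter reached higher levels. Their highest values were 11.08 TPM for Pdgfra, 2.58 for Dcn, 10.27 for Col1a1, 14.65 for Cd68, 6.98 for Pecam1 and 13.84 for Fabp4. Whether a few other cells were present was not tested. In these bulk samples, fewer cells of a kind and less RNA per cell cannot be told apart.

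In control cells at 0 h Cdk4 was the most abundant G1 regulator at 449 TPM ± 40.7 (SD, n = 3). Ccnd2 (156 TPM), Ccnd3 (139 TPM) and Cdkn2b (126 TPM) came next, and neighbours among these last 3 overlapped. Ccnd1 followed at 51.2 TPM and overlapped neither neighbour, then Cdk6 (23.3 TPM), Ccne2 (16.8 TPM) and Ccne1 (16.6 TPM), where neighbours overlapped. Cdkn2a (5.85 TPM) and Cdkn1b (2.43 TPM) were lowest, and overlapped each other. Cdk4 was the highest member in each of the 4 groups, with no overlap with the next.

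**Figure D1:**
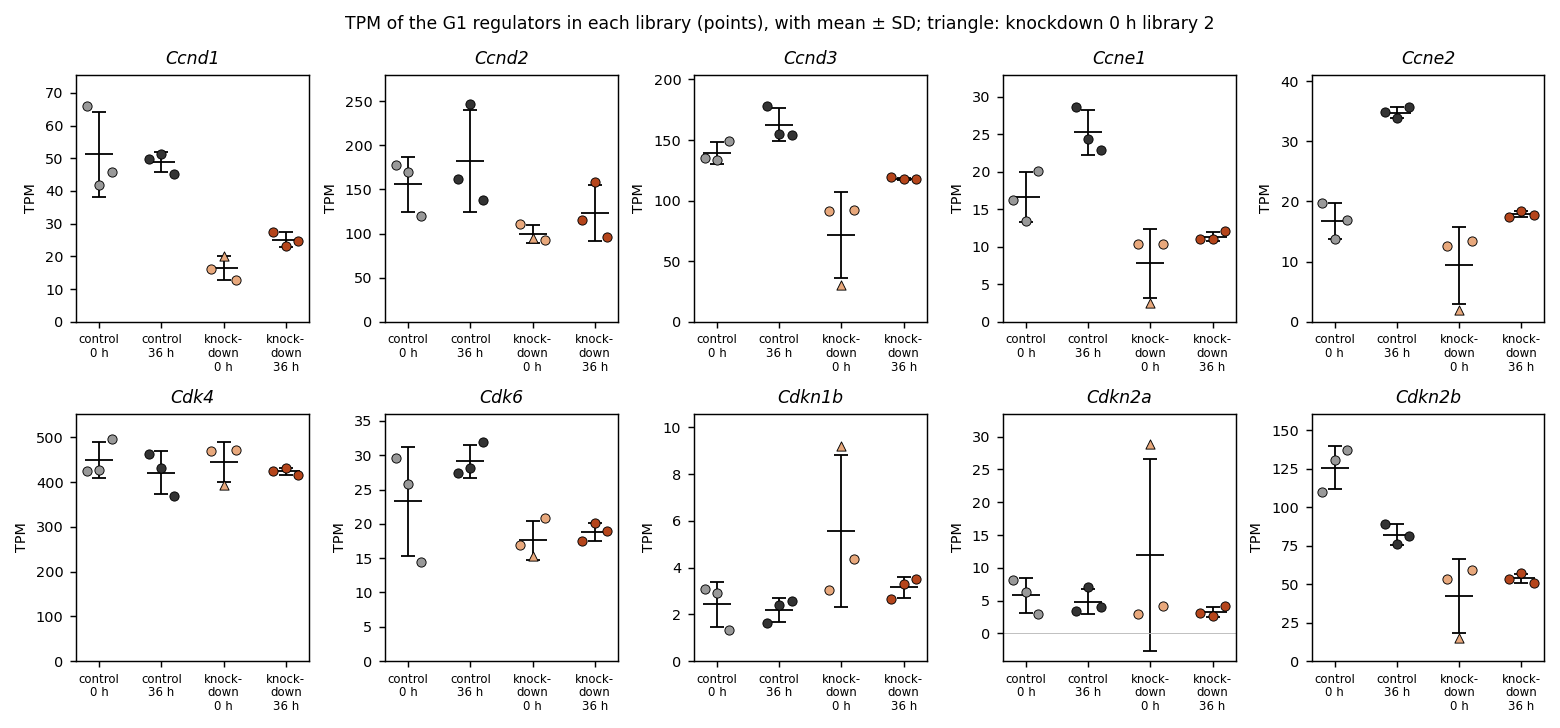
TPM (linear axis) of each of the 10 genes in the 12 libraries, by group. Points are libraries, bars the mean and SD of 3 (that of Cdkn2a in knockdown at 0 h runs below 0), and the triangle is knockdown 0 h library 2. The control libraries lie above the knockdown libraries at both times for Ccnd1, Ccnd3, Ccne1, Ccne2 and Cdkn2b, while Cdk4 overlaps.

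At 0 h the knockdown held less RNA of 2 D cyclins and of an Ink4 inhibitor, while the level of Cdk4 overlapped that of control. Ccnd1, Ccnd3 and Cdkn2b fell, no member rose, and 7 of 10 did not pass. Over all genes tested 14.6% were called lower and 17.7% were called in either direction. In 6 members (Ccnd1, Ccnd2, Ccnd3, Ccne1, Ccne2 and Cdkn2b) each knockdown library lay below each control library, where 30.7% of all genes did so. The median change of the 10 was -0.85 against -0.41 over all genes. With the TPM as deposited but without knockdown 0 h library 2, it was -0.55 against -0.16. The all-gene median also depends on scaling. After median-of-ratios scaling, which sets the middle gene near no change, it was 0.02 and that of the members -0.36. The share of higher genes among those called went from 17.5% to 46.0% with that scaling. The same 3 members were called lower after that scaling, where 10.2% of all genes were. Ccne1 joined them without knockdown 0 h library 2, and 16.5% of all genes were called lower.

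Ccnd1 (ENSMUSG00000070348), the cyclin D1 gene, was 66.1, 41.8 and 45.8 TPM in the control libraries at 0 h and 16.1, 20.2 and 12.9 TPM in the knockdown. The highest knockdown library held less than the lowest control library. The group means were 51.2 TPM ± 13.0 and 16.4 TPM ± 3.68 (SD, n = 3), so the knockdown held 32.0% of the control level. Ccnd1 fell by 1.58 on the log2 scale (SE 0.227, limma adjusted p 0.00239). Leaving out any 1 library did not end this call, and without knockdown 0 h library 2 the log2 change was -1.73 (adjusted p 0.000275). After median-of-ratios scaling it was -1.08 (adjusted p 0.0497). A fit of only the 6 libraries at 0 h gave adjusted p 0.08 for the same difference, and in that fit 0.111% of all genes and no member were called. In all, the call was lost in 3 of 25 alternatives, with limma adjusted p up to 0.0998.

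Ccnd1 at 36 h was 49.9, 51.2 and 45.3 TPM in control and 27.6, 23.1 and 24.7 TPM in knockdown. The groups again did not overlap, and the knockdown held 51.5% of the control level. The log2 change of -0.93 (SE 0.227) had a limma adjusted p of 0.0571 and was not called. It was called without knockdown 0 h library 2 (adjusted p 0.00475), without knockdown 0 h library 3 (adjusted p 0.0367) and in a fit of only the 36 h libraries (adjusted p 0.00541), and not after median-of-ratios scaling (-0.83, adjusted p 0.195). These knockdown 0 h libraries enter the 36 h comparison only through the shared estimate of spread.

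Ccnd3 (ENSMUSG00000034165), the cyclin D3 gene, was 135, 133 and 150 TPM in control at 0 h and 91.6, 30.4 and 92.4 TPM in knockdown. All 3 knockdown libraries were below the controls, and library 2 was the lowest by far. The knockdown held 51.3% of the control level, and Ccnd3 fell by 1.11 on the log2 scale (SE 0.346, limma adjusted p 0.0469). Without library 2 the change was smaller and tighter, at -0.59 (SE 0.0920, adjusted p 0.00176). The call was lost in 13 of 25 alternatives, with adjusted p up to 0.213. Among them were 9 of the 12 fits that left out 1 library, with adjusted p from 0.0620 to 0.128. These 9 left out a control library or a knockdown 36 h library. At 36 h Ccnd3 was 178, 155 and 154 TPM in control and 119, 118 and 118 TPM in knockdown. There was again no overlap, and the level was 72.7% of control (log2 change -0.45, adjusted p 0.612, or 0.00491 without knockdown 0 h library 2).

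Ccnd2 (ENSMUSG00000000184), the cyclin D2 gene, was 178, 170 and 120 TPM in control at 0 h and 111, 95.2 and 92.3 TPM in knockdown. The groups did not overlap, but the log2 change of -0.63 (SE 0.267, 95% interval -1.21 to -0.04) had a limma adjusted p of 0.115. It was -0.60 without knockdown 0 h library 2 and -0.11 after median-of-ratios scaling. At 36 h the libraries overlapped, with 162, 247 and 138 TPM in control and 115, 158 and 96.6 TPM in knockdown.

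The summed TPM of the 3 D cyclins was 346 ± 32.0 in control and 187 ± 37.4 in knockdown at 0 h (SD, n = 3), with 146 TPM in knockdown library 2 and 219 and 198 TPM in libraries 1 and 3, and 393 ± 57.9 and 267 ± 30.3 at 36 h. The share of Ccnd1 in that sum, which no scaling of a library changes, was 17.4%, 12.1% and 14.5% in control at 0 h and 7.35%, 13.9% and 6.52% in knockdown. Library 2 of the knockdown lay among the controls, and the other 2 lay below them. At 36 h the share was 12.8%, 11.3% and 13.4% in control and 10.5%, 7.72% and 10.3% in knockdown, without overlap. These shares are a description and were not tested. Of the knockdown 0 h sum Ccnd2 held 50.7%, 65.3% and 46.7%, and Ccnd3 41.9%, 20.9% and 46.8%.

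**Figure D2:**
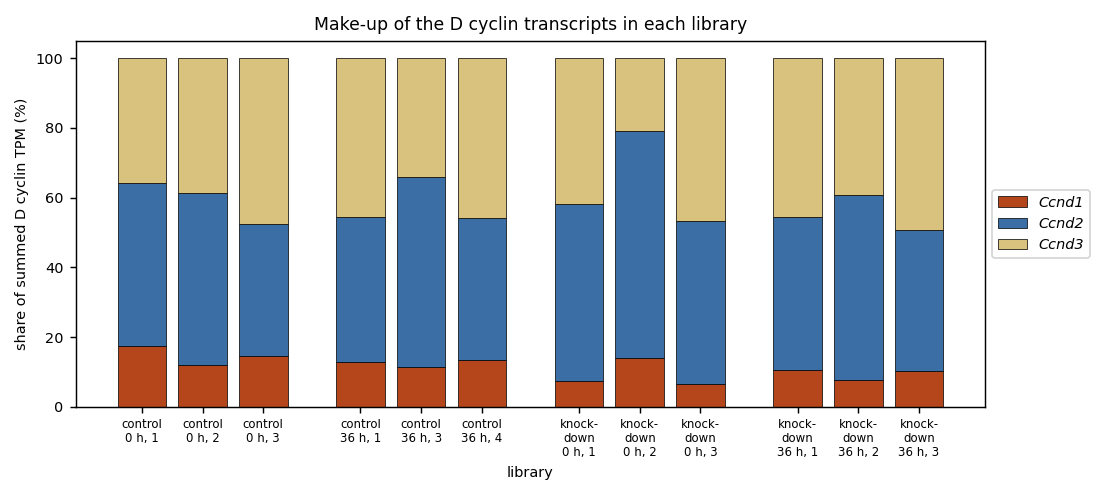
Share of each D cyclin in the summed TPM of Ccnd1, Ccnd2 and Ccnd3 (percent, stacked from 0 to the whole sum), 1 bar per library, controls and knockdown side by side. Ccnd1 takes 11.3% to 17.4% in the control libraries and 6.52% to 13.9% in the knockdown libraries.

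The E cyclins showed lower levels in knockdown at both times and higher levels at 36 h than at 0 h, without passing the test. For Ccne1 in knockdown, the 0 h libraries other than library 2 stood only slightly below those of 36 h. Ccne1 (ENSMUSG00000002068) was 16.3, 13.4 and 20.2 TPM in control at 0 h and 10.4, 2.52 and 10.4 TPM in knockdown. No libraries overlapped (46.7% of control, log2 change -1.18, SE 0.388, limma adjusted p 0.0564). Without knockdown 0 h library 2 the log2 change was -0.61 and called (adjusted p 0.0292), and it was also called without library 1 (adjusted p 0.0366) or library 3 (adjusted p 0.0176) of that group. At 36 h Ccne1 was 28.6, 24.3 and 22.8 TPM in control and 11.0, 11.0 and 12.04 TPM in knockdown. The gap between the groups was wide against their spread, and the level was 44.9% of control (log2 change -1.09, adjusted p 0.179). It was called after median-of-ratios scaling (-0.98, adjusted p 0.0495) and without knockdown 0 h library 2 (adjusted p 0.00144).

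Ccne2 (ENSMUSG00000028212) was 19.7, 13.7 and 17.0 TPM in control at 0 h and 12.6, 1.99 and 13.4 TPM in knockdown. The lowest control and the highest knockdown library differed little, and the log2 change was -1.07 (SE 0.477, limma adjusted p 0.126), or -0.33 without library 2 and -1.47 without library 3 (adjusted p 0.0333). At 36 h it was 34.9, 33.8 and 35.6 TPM in control and 17.4, 18.4 and 17.8 TPM in knockdown. The libraries of each group lay close together and far from the other group, at 51.5% of control (log2 change -0.92, adjusted p 0.387). Without knockdown 0 h library 2 the adjusted p was 0.00143, and in a fit of only the 36 h libraries 0.00430.

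At 36 h no member passed the limma test (adjusted p from 0.0571 for Ccnd1 to 0.984 for Cdk4), where 2.53% of all genes were called and 2345 genes had an unadjusted p under 0.05. With no overlap between the groups, 6 members lay lower in knockdown (Ccnd1, Ccnd3, Ccne1, Ccne2, Cdk6 and Cdkn2b), where 22.0% of all genes did so. Cdkn1b alone lay higher, where 14.8% of all genes did so. The members' median change was -0.57 against -0.09 over all genes, and -0.47 against 0.01 after median-of-ratios scaling. In the fit that left out knockdown 0 h library 2, 5 members were called lower (Ccnd1, Ccnd3, Ccne1, Ccne2 and Cdkn2b), where 11.7% of all genes were. A fit of only the 36 h libraries called these 5 and Cdk6, where 9.48% of all genes were called lower. An exact two-sided permutation test of a single gene cannot go below p = 0.1 with 3 libraries against 3, and gave that value for Ccnd1 and Cdkn2b at both times.

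Cdk4 (ENSMUSG00000006728), the main kinase partner of the D cyclins, was 424, 427 and 496 TPM in control at 0 h and 469, 393 and 472 TPM in knockdown. The groups overlapped, and the log2 change was -0.01 (95% interval -0.36 to 0.33, limma adjusted p 0.952). At 36 h it was 462, 432 and 369 TPM in control and 424, 431 and 416 TPM in knockdown, with a log2 change of 0.01 (95% interval -0.33 to 0.36, adjusted p 0.984). The 0 h change was 0.51 after median-of-ratios scaling (adjusted p 0.104) and 0.072 without knockdown 0 h library 2, so its direction depends on both. Cdk6 (ENSMUSG00000040274), the other kinase partner, was 29.6, 25.8 and 14.4 TPM in control at 0 h and 16.8, 15.3 and 20.8 TPM in knockdown, with overlap (log2 change -0.33, adjusted p 0.344, 0.16 after median-of-ratios scaling and -0.24 without knockdown 0 h library 2). At 36 h it was 27.3, 28.1 and 31.9 TPM in control and 17.5, 20.1 and 19.0 TPM in knockdown. These did not overlap, at 64.7% of control (log2 change -0.60, adjusted p 0.268, or 0.0212 in a fit of only the 36 h libraries). Cdk6 made up 5.01% ± 1.94 of the summed TPM of both kinases in control at 0 h and 3.81% ± 0.380 in knockdown (SD, n = 3).

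Cdkn2b (ENSMUSG00000073802), which encodes the Cdk4 and Cdk6 inhibitor p15, was 110, 130 and 137 TPM in control at 0 h and 53.3, 15.0 and 59.1 TPM in knockdown. Each knockdown library was below each control library, and library 2 was again the lowest. The level was 33.7% of control, and Cdkn2b fell by 1.76 on the log2 scale (SE 0.402, limma adjusted p 0.0159). Without knockdown 0 h library 2 the change was -1.15 (SE 0.120, adjusted p 0.00024), and after median-of-ratios scaling -1.26 (adjusted p 0.00454). Leaving out control 0 h library 1, 2 or 3 gave adjusted p of 0.0503, 0.0550 and 0.0587. In all, the call was lost in 4 of 25 alternatives, with adjusted p up to 0.141. At 36 h Cdkn2b was 89.3, 76.0 and 81.5 TPM in control and 53.1, 57.2 and 51.0 TPM in knockdown. The groups did not overlap, at 65.3% of control (log2 change -0.60, adjusted p 0.537, or 0.0045 without knockdown 0 h library 2).

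Cdkn2a (ENSMUSG00000044303) lies next to Cdkn2b and encodes p16Ink4a and p19Arf from separate first exons, which a gene-level TPM does not separate. It was 8.22, 6.34 and 2.98 TPM in control at 0 h and 3.0, 28.8 and 4.12 TPM in knockdown. The high value was that of library 2 alone, and the log2 change of 0.39 (SE 0.630, limma adjusted p 0.653) turned to -0.51 (adjusted p 0.341) without it. At 36 h the libraries overlapped, with 3.48, 7.03 and 4.08 TPM in control and 3.12, 2.66 and 4.12 TPM in knockdown. Mtap, the neighbour on the other side of Cdkn2a in RefSeq's gene order, was not called at 0 h (log2 change -0.81, adjusted p 0.141).

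The 250 bases before the annotated starts at this locus are printed because its adjacent genes stood at different levels in control cells. They come from RefSeq's promoter windows of GRCm38.p6, another build than the one the submitters name, and are written along the gene's strand (minus) from 5′ to 3′, with capitals for a motif match. The windows are Cdkn2b at chr4:89311033-89311282, Cdkn2a distal (the upstream start) at chr4:89294620-89294869 and Cdkn2a proximal at chr4:89282193-89282442.
Cdkn2b: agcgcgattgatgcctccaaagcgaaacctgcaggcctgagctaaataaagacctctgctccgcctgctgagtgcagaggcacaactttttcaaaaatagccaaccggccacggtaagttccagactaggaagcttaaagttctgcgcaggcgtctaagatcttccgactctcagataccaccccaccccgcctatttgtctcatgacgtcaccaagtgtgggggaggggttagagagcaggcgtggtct
Cdkn2a distal: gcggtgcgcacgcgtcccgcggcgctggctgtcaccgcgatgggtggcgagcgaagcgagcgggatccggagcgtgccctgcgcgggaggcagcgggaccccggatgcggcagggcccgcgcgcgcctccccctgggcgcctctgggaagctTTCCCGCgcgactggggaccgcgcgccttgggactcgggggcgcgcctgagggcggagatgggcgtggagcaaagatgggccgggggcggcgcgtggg
Cdkn2a proximal: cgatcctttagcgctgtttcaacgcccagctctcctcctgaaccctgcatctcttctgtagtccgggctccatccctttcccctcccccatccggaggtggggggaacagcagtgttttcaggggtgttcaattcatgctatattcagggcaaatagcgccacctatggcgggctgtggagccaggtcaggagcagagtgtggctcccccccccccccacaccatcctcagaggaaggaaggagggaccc
Searched on both strands were CACCTG (an E-box bound by Snail factors, in 17.2% of 32851 RefSeq windows of this length), TTCCCGC and TTGGCGC (E2F, 3.82% and 1.97%) and TGANTCA (AP-1, 6.75%). The only match in 9 windows of 7 members was TTCCCGC in the distal Cdkn2a window, 98 to 92 bases before the start. GC content was 53.6% in the Cdkn2b window, 78.4% in the distal and 60.0% in the proximal Cdkn2a window. These are descriptions of letters in short windows, and binding was not measured.

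With the TPM as deposited and all 12 libraries, Cdkn1b (ENSMUSG00000003031) was the only member with a higher level in knockdown in both comparisons. It encodes p27 and stood under 10 TPM. After median-of-ratios scaling Cdk4 was also higher in both (log2 change 0.51 at 0 h and 0.12 at 36 h). Cdkn1b was 3.07, 2.90 and 1.31 TPM in control at 0 h and 3.05, 9.22 and 4.37 TPM in knockdown. The groups overlapped and library 2 held the highest value (log2 change 0.87, SE 0.340, limma adjusted p 0.0939, or 0.49 and 0.236 without it). Leaving out knockdown 0 h library 1 instead gave 1.16 (adjusted p 0.0426). At 36 h it was 1.62, 2.40 and 2.57 TPM in control and 2.66, 3.31 and 3.51 TPM in knockdown, without overlap (144% of control, log2 change 0.39, adjusted p 0.674).

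Over the 36 h of migration no member passed in control (0.360% of all genes were called) or in knockdown (1.12%). Without knockdown 0 h library 2, Ccne2 was called higher and Cdkn2b lower in control, where 2.75% of all genes were called. In control, Ccnd3, Ccne1 and Ccne2 were higher at 36 h without overlap (9.55% of all genes) and Cdkn2b was lower (12.3%). Ccne2 went from 16.8 TPM ± 3.01 to 34.8 TPM ± 0.909 (SD, n = 3), which is 207% of the 0 h level (log2 change 1.02, limma adjusted p 0.925). It was called without knockdown 0 h library 2 (adjusted p 0.00287) and in a fit of only the control libraries (adjusted p 0.0303), where 1.71% of all genes were called. Ccne1 reached 152% of its 0 h level (log2 change 0.59, adjusted p 1). Cdkn2b went from 126 TPM ± 14.1 to 82.3 TPM ± 6.67, 65.4% of the 0 h level (log2 change -0.60, adjusted p 1, or 0.0153 without knockdown 0 h library 2).

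In knockdown, Ccnd1, Ccnd3, Ccne1 and Ccne2 were higher at 36 h without overlap (15.0% of all genes) and none was lower (3.91%). Ccnd1 went from 16.4 to 25.1 TPM (log2 change 0.61, limma adjusted p 0.252). That change was 0.76 without library 2 (adjusted p 0.0636) and 0.22 after median-of-ratios scaling (adjusted p 0.726). Ccne2 went from 9.35 TPM ± 6.39 to 17.9 TPM ± 0.493 (log2 change 1.17, adjusted p 0.277, or 0.43 without library 2 and 0.86 after median-of-ratios scaling). Ccne1 had a log2 change of 0.68 (adjusted p 0.341), down to 0.03 among the alternatives. At 0 h it was 2.52 TPM in library 2 and 10.4 TPM in libraries 1 and 3, against 10.98 TPM or more at 36 h. Ccnd3 had a log2 change of 0.88 (adjusted p 0.264), down to 0.27 among the alternatives. At 0 h it was 30.4 TPM in library 2. Cdkn2b had a log2 change of 0.55 in knockdown (adjusted p 0.402), which was -0.06 without library 2 and 0.17 after median-of-ratios scaling. Under median-of-ratios scaling the share of higher genes among those called went from 69.2% to 56.8% in control and from 88.9% to 73.3% in knockdown, and the all-gene median in knockdown went from 0.33 to near 0. The difference between the 36 h changes of knockdown and control was called for 0% of all genes and for no member (766 genes had an unadjusted p under 0.05). It was 1.16 for Cdkn2b (adjusted p 0.595, or 0.54 and 0.431 without knockdown 0 h library 2) and 0.65 for Ccnd1 (adjusted p 0.595). After median-of-ratios scaling these differences were 0.76 and 0.25.

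The rest of the pathway is given from lists chosen with earlier results of these data known. Over all genes tested, 14.6% were called lower at 0 h and 1.64% at 36 h, the shares to set beside the list counts. Of the other CDK inhibitors, 2 of 3 tested fell in knockdown at 0 h. Cdkn1a, which encodes p21, was 152, 162 and 149 TPM in control and 74.3, 66.6 and 51.8 TPM in knockdown, without overlap, and fell by 1.26 on the log2 scale (limma adjusted p 0.00207). Its change was -0.75 after median-of-ratios scaling (adjusted p 0.0774) and -1.30 without knockdown 0 h library 2 (adjusted p 0.000211). Cdkn1a also fell at 36 h, by 1.01 on the log2 scale (49.4% of control, adjusted p 0.0183, or 0.084 after median-of-ratios scaling). Dropping library 1 or 4 of the control or any of the knockdown at 36 h ended that call (adjusted p 0.0773 to 0.102). Cdkn2d, an Ink4 gene (p19Ink4d), fell by 1.06 at 0 h (adjusted p 0.0178, or 0.0559 to 0.0698 without control 0 h library 1, 2 or 3). Cdkn2c was not called (-0.48, adjusted p 0.0593), and Cdkn1c was under the filter. Of the pocket proteins that hold E2F, Rbl1 fell by 1.07 (adjusted p 0.0299, or 0.0692 to 0.0982 without control 0 h library 1, 2 or 3), while Rb1 (-0.15, adjusted p 0.708) and Rbl2 (-0.90, adjusted p 0.246) were not called.

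Further down, 4 of 10 E2F and DP factors fell at 0 h, among them E2f2 (-1.17, limma adjusted p 0.0129, or 0.0607 without control 0 h library 1) and the repressor E2f8 (-1.29, adjusted p 0.0162, or 0.0545 to 0.0568 without control 0 h library 1, 2 or 3). Of Cdk2 and its activators 3 of 8 fell, namely Cdc25b, Cdc25c and Ccna2, while Cdk2 itself was not called. Ccna2, which follows cyclin E in S phase and is also counted among the E2F targets, was at -1.97 (adjusted p 0.00111). Of 9 genes that turn over G1 regulators 2 fell, where 14.6% of all genes were called lower. The 2 include Cks1b (-1.47, adjusted p 0.00284), a cofactor in the breakdown of p27. The median of these 9 was -0.57 against -0.41 over all genes, and -0.06 against 0.02 after median-of-ratios scaling. E2F target genes of the G1/S step had 20 of 24 lower and a median of -1.59, among them Mcm5 (-2.22, adjusted p 0.00208), a subunit of the replicative helicase, and Cdt1 (-1.60, adjusted p 0.00177), which loads it. All 10 proliferation markers tested fell, with a median of -1.99, among them Mki67 (-2.04, adjusted p 0.00183). No gene of these lists rose with the TPM as deposited, where 3.10% of all genes did. After median-of-ratios scaling 1 E2F or DP factor was called higher, where 8.66% of all genes were. Without knockdown 0 h library 2 there was also 1, where 6.74% of all genes were called higher. After median-of-ratios scaling 17 of the 24 and all 10 were still called lower, with medians of -1.15 and -1.52, where 10.2% of all genes were. Leaving out knockdown 0 h library 2 gave 20 of the 24 and all 10 lower, with medians of -1.14 and -1.59 beside -0.16 for all genes. In that fit 3 of 3 other CDK inhibitors, 1 of 3 pocket proteins, 5 of 10 E2F and DP factors, 4 of 8 of the Cdk2 list and 2 of 9 turnover genes were lower. Of all genes tested, 16.5% were called lower in the same fit. The summed TPM of the proliferation markers was 676, 243 and 583 in knockdown at 0 h against 1743 to 1824 in control. The part of this difference in the levels of the G1 regulators was not tested.

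The list of 17 inputs to cyclin D transcription also holds factors known to act on the p27 gene. Of these 17, 7 fell at 0 h, with a median of -0.84: Fos, Jun, Myc, Ets1, Ets2, Ctnnb1 and Foxo1. The AP-1 genes Fos (-2.42, limma adjusted p 0.00213) and Jun (-2.42, adjusted p 0.0035) were called, while Fosl1 and Junb were not. After median-of-ratios scaling 6 of the 17 were lower, with a median of -0.35. Without knockdown 0 h library 2, 8 of the 17 were lower, with a median of -0.57. At 36 h none of the 17 was called. At that time 3 of the 24 E2F targets and 3 of the 10 proliferation markers were lower, where 1.64% of all genes were. The medians of these lists were -0.76 and -0.91, and Mki67 was at -1.86 (adjusted p 0.0108). For Mki67, dropping library 1 or 4 of the control or 2 or 3 of the knockdown ended the call (adjusted p 0.0623 to 0.0735). With knockdown 0 h library 2 left out the counts of the 2 lists were 12 and 10, where 11.7% of all genes were called lower. Without control 36 h library 4 both counts were 0. The proliferation markers summed to 1743 to 1759 TPM in control at 36 h and 923 to 996 TPM in knockdown. From 0 h to 36 h within the knockdown, 2 of 24 E2F targets (Mcm5 and Ccna2) and 1 of 10 proliferation markers (Plk1) rose. So did 2 of 8 of the Cdk2 list (Cdc25c and Ccna2), where 0.998% of all genes rose. The medians of the E2F targets and markers were 1.00 and 1.07, against 0.33 over all genes. Calls of Ccna2, Plk1 and Cdc25c were lost in 17, 13 and 5 of 25 alternatives. Mcm5 rose by 1.74 on the log2 scale (adjusted p 0.0215), a call lost without knockdown 36 h library 1, 2 or 3 (adjusted p 0.0817 to 0.113). That rise was 1.35 without knockdown 0 h library 2 (adjusted p 0.00374). The 13 mitochondrially encoded genes had a median of 0.89 at 0 h, or 0.14 without knockdown 0 h library 2, with none called in either fit.

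**Figure D3:**
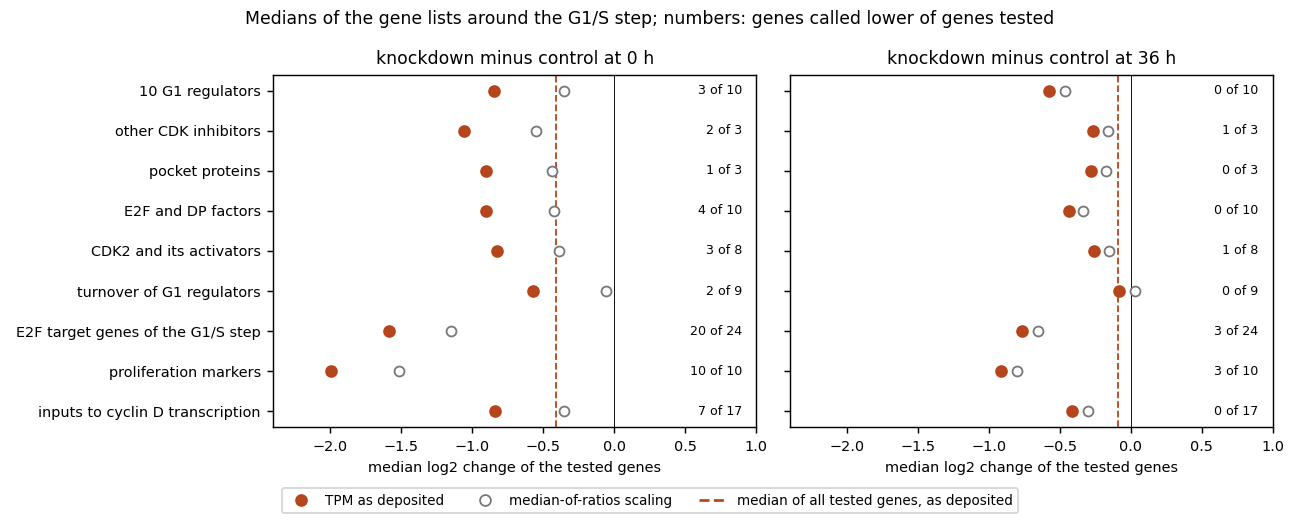
Median log2 change of each gene list in knockdown against control, at 0 h (left) and 36 h (right), beside that of the 10 G1 regulators and of all genes tested (dashed line). Filled points use the TPM as deposited, open points median-of-ratios scaling, and the counts at the right are genes called lower of those tested. Proliferation markers are at -1.99 and E2F targets at -1.59 at 0 h, against -0.85 for the G1 regulators and -0.41 for all genes.

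The genes whose log2 levels ran most like those of each member over the 12 libraries were found by Pearson's r, as a description in which all points share library and group. Knockdown 0 h library 2 held the lowest level of Ccnd3, Ccne1, Ccne2 and Cdkn2b and the highest of Cdkn1b (9.22 TPM) and Cdkn2a (28.8 TPM). A single extreme library can set such an r, and r without that library is not given, so these values do not show shared regulation. For Ccnd1 they were Trmt61b (0.967), Pcdhb16 (0.953) and Kif20b (0.95). For Ccnd3 they were Gemin6 (0.995), Marveld1 (0.995) and Nob1 (0.994), and for Cdkn2b Zfp358 (0.994), Rbm48 (0.993) and Sphk1 (0.991). Ccne1 ran most like Plekhf1 (0.989), which is 2 protein-coding genes from it in RefSeq's order and fell at 0 h (log2 change -1.29, limma adjusted p 0.0386, against 0.0564 for Ccne1, which was not called), while Uri1 next to Ccne1 was not called (-0.56, adjusted p 0.236). Zfp948 (0.985) and Cav1 (0.979) came next for Ccne1. Ccne2 ran most like Mest (0.977), Acat2 (0.977) and Pdlim1 (0.973), and Cdk6 like Dbr1 (0.948), Ptma (0.927) and Zbtb6 (0.923). For Cdkn1b they were Snord118 (0.963), a small nucleolar RNA, Rps27a (0.951) and Snord13 (0.948), and for Cdkn2a Npff (0.959), Fxyd3 (0.948) and Dusp16 (0.946). Ccnd2 had Aloxe3 (0.925), Oxct1as (0.919) and Sncg (0.861), and Cdk4 had Raet1e (0.862), Brap (0.818) and Uckl1 (0.806).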

How the data were processed

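RNA-seq was measured in 12 libraries of 4 groups (Illumina stranded mRNA kit, per the labels' protocols). The deposited table holds gene-level TPM from the authors. Named in the submitters' processing notes are HISAT2 2.2.1, HTSeq, DESeq2, cutadapt 1.9.1, FastQC and GRCm39. Which of them made the TPM is not given in the sources used here. Counts were not recovered, so depth is unknown and no counting error can be given. The authors' group means were not used, and that of control 36 h covers only libraries 1 and 3.

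Genes that reached 1 TPM in 3 or more libraries were fitted as log2(TPM + 1), which understates changes of low genes, with 1 mean per group in limma 3.58.1 (trend in the variance, R 4.3.3). There were 5 comparisons, adjusted over all genes tested. On simulated data for knockdown against control at 0 h, the fit recovered 23% of 100 genes changed by 1 and 65% of 100 changed by 2 on the log2 scale. Only these genes were changed, with noise drawn separately for each gene and no shift of a whole library. In the data 17.7% of all genes were called at 0 h, so these shares do not give the power of the real comparison. The genes named are the 10 members, Snai1, the called list genes with the lowest adjusted p, the other inhibitors and pocket proteins, and for each member the 3 genes most correlated with it. The neighbours Mtap and Uri1, further genes of the Cdk2 and cyclin D input lists and the cell type markers named were added after their values were seen. RefSeq windows matched 7 of 10 members. The members and lists were chosen with earlier results of these data known. There were 25 alternatives, which covered pseudocount, filter, scaling, variance, replicate block, weights and libraries left out.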

Additional observations from a re-analysis of the deposited data

How the results depend on the processing

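Without read counts, what depth limits cannot be given. The cause of the shifts below was not tested, beyond fewer libraries or other tested genes where a setting makes them so. Same-numbered libraries did not deviate together (correlations of deviations from -0.201 to 0.132), so replicate numbers were taken as names, and the replicate block is given only as an alternative. The fit with array weights gave a convergence warning. The counts to compare with are 2550, 365, 52, 162 and 0 genes, and 3, 0, 0, 0 and 0 members, for the knockdown at 0 h, at 36 h, time in control, time in knockdown and the difference between the 36 h changes. Changes are log2 values. With no filter there were for the knockdown at 0 h 1258 genes called and Snai1 not called at -0.80, for the knockdown at 36 h 192 genes called and for the difference between the 36 h changes 1 gene called. With a filter of 5 TPM there were for the knockdown at 36 h 1 member called. With median-of-ratios scaling there were for the knockdown at 0 h Snai1 not called at -0.51, Cdk4 at 0.51 and Cdk6 at 0.16, for the knockdown at 36 h 856 genes called and 1 member called, for time in control 88 genes called, for time in knockdown Ccnd2 at -0.12 and Cdk6 at -0.28 and for the difference between the 36 h changes 1 gene called, Ccnd2 at -0.33, Ccne1 at -0.24, Ccne2 at -0.16 and Cdk4 at -0.38. With quantile normalization there were for the knockdown at 0 h Snai1 not called at -0.71 and Cdk6 at 0.23, for the knockdown at 36 h 933 genes called, for time in control 111 genes called and Ccnd1 at 0.0063, for time in knockdown Cdk6 at -0.31 and for the difference between the 36 h changes 1 gene called, Ccnd2 at -0.20, Ccne1 at -0.13 and Ccne2 at -0.067. With the replicate block there were for the knockdown at 0 h 1011 genes called and Snai1 not called at -0.80, for the knockdown at 36 h 5 genes called, Snai1 not called at -1.50 and Cdk4 at -0.041, for time in control 6 genes called, Cdkn1b at 0.019 and Cdkn2a at 0.19, for time in knockdown 40 genes called and for the difference between the 36 h changes 1 gene called, Ccnd2 at -0.18 and Cdk4 at -0.027. With the replicate block and median-of-ratios scaling there were for the knockdown at 0 h 1394 genes called, 1 member called, Snai1 not called at -0.51, Cdk4 at 0.51 and Cdk6 at 0.16, for the knockdown at 36 h 33 genes called, Snai1 not called at -1.47 and Cdk4 at -0.048, for time in control 4 genes called, Ccnd1 at 0.12, Cdk4 at 0.086, Cdkn1b at 0.14 and Cdkn2a at 0.32, for time in knockdown 51 genes called, Ccnd2 at -0.12 and Cdk6 at -0.28 and for the difference between the 36 h changes Ccnd2 at -0.70, Ccne1 at -0.16 and Cdk4 at -0.55. With array weights there were for the knockdown at 0 h 4684 genes called, Cdk4 at 0.10 and Cdkn2a at -0.77, for the knockdown at 36 h 7678 genes called and 7 members called, for time in control 4890 genes called, 6 members called, Snai1 called at 0.82 and Ccnd2 at -0.24, for time in knockdown 664 genes called and for the difference between the 36 h changes 90 genes called, Ccne1 at -0.39, Ccne2 at -0.54 and Cdkn2a at 0.46. With only the groups compared there were for the knockdown at 0 h 16 genes called, 0 members called and Snai1 not called at -0.80, for the knockdown at 36 h 2176 genes called and 6 members called, for time in control 247 genes called and 1 member called and for time in knockdown 18 genes called. With median-of-ratios scaling and no knockdown 0 h library 2 there were for the knockdown at 0 h Cdk4 at 0.27 and Cdkn2a at -0.35, for the knockdown at 36 h 2741 genes called and 5 members called, for time in control 390 genes called and 2 members called, for time in knockdown 411 genes called, Cdk6 at -0.079 and Cdkn2b at -0.15 and for the difference between the 36 h changes 6 genes called, Ccnd2 at -0.043, Ccne1 at -0.56, Ccne2 at -0.68, Cdk4 at -0.15 and Cdkn2a at 0.020. With neither knockdown 0 h library 2 nor control 36 h library 4 there were for the knockdown at 0 h Cdk4 at 0.072 and Cdkn2a at -0.51, for the knockdown at 36 h 1439 genes called, 5 members called and Cdk4 at -0.077, for time in control 159 genes called, 1 member called and Ccnd1 at 0.0092, for time in knockdown 255 genes called and Cdkn2b at -0.062 and for the difference between the 36 h changes 10 genes called, Ccnd2 at -0.13, Ccne1 at -0.54, Ccne2 at -0.57, Cdk4 at -0.15 and Cdkn2a at 0.019. Leaving out 1 library at a time gave for the knockdown at 0 h 747 to 5853 genes called, 1 to 5 members called, Snai1 from -0.93 to -0.64, Cdk4 from -0.060 to 0.072 and Cdkn2a from -0.51 to 0.94, for the knockdown at 36 h 24 to 2683 genes called, 0 to 5 members called, Snai1 from -1.64 to -1.42 and Cdk4 from -0.077 to 0.085, for time in control 17 to 397 genes called, 0 to 2 members called, Ccnd1 from -0.17 to 0.15, Ccnd2 from -0.038 to 0.38, Cdkn1b from -0.33 to 0.078 and Cdkn2a from -0.54 to 0.070, for time in knockdown 47 to 1541 genes called and Cdkn2b from -0.062 to 0.89 and for the difference between the 36 h changes 0 to 11 genes called, Ccnd2 from -0.11 to 0.32, Ccne1 from -0.47 to 0.37, Ccne2 from -0.59 to 0.54, Cdk4 from -0.063 to 0.099, Cdk6 from -0.47 to 0.030 and Cdkn2a from -1.35 to 0.099. Apart from the difference between the 36 h changes, the highest gene counts came without knockdown 0 h library 2 or 3, and the lowest without a control library or knockdown 36 h library 2. The log2 changes of Ccnd1, Ccnd2, Ccnd3, Ccne1, Ccne2, Cdkn1b and Cdkn2b with the knockdown kept their sign at both times in every alternative that gave a value.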
